A study of Rattus norvegicus with 8 samples.

Results

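The cytoplasmic ribosomal proteins were measured by 64 probe sets for 44 genes, out of 8740 probe sets that are not array controls. A probe set was taken as a member when the platform annotation gave it a single symbol of a ribosomal protein of the large subunit (Rpl, Rplp) or of the small subunit (Rps, Rpsa), with the S6 kinases left out. The large subunit had 43 probe sets for 30 genes and the small subunit 21 probe sets for 14 genes. Among the 44 genes, Rps2-ps1 and Rps4x-ps9 are listed by RefSeq as pseudogenes, and Rpl3l is a paralog of Rpl3 known from heart and skeletal muscle. A further 40 probe sets carried several symbols with a ribosomal protein among them and were left out.

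RNA came from rat embryos at E12.5, in 4 groups of 2 arrays: Pax6 homozygous forebrain, wild-type forebrain, Pax6 homozygous hindbrain and wild-type hindbrain. Pax6 encodes a paired-box and homeobox transcription factor of the developing eye, forebrain and hindbrain; the labels call the mutants homozygous and give neither the allele nor the number of embryos in each RNA sample. The tissue in front of the forelimbs was split at the isthmus. Forebrain samples therefore contained midbrain, eye and nose primordia too, and hindbrain samples contained pharyngeal arches. Poly(A) RNA was labelled and hybridised to Affymetrix rat U34A arrays, which read each transcript with a set of short oligonucleotides. Whether both arrays of a group were made from different embryos is not in the labels, and p-values describe only the array-to-array spread, which may be technical.

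Each cytoplasmic ribosome holds a single copy of nearly all of its proteins, and the genes for these proteins lie scattered over the genome. In mammals the transcripts of ribosomal proteins are among the most abundant in dividing cells. They begin with a C followed by a run of C and T (the terminal oligopyrimidine motif), through which the kinase mTOR and the binding protein Larp1 regulate their translation, so much of the known regulation of these proteins does not act on transcript amount. Heterozygous loss of certain ribosomal proteins causes Diamond-Blackfan anaemia in humans, a failure of red cell formation.

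The start regions of several members are shown because this motif is the known common feature of the members' transcripts. Each line gives 50 bases of the gene's strand around the annotated transcript start, 30 before it and 20 from the start base on, 5′ to 3′, from RefSeq on build GRCr8. Capitals mark the run of C and T that holds the start base, where there is one.
Rpl27a (chr1:172974543-172974592, plus strand): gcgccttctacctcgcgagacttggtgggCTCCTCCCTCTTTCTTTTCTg
Rpl35 (chr3:43165902-43165951, minus strand): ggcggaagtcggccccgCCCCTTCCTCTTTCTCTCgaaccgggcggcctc
Rps10 (chr20:5700725-5700774, minus strand): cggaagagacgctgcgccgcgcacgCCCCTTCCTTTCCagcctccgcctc
Rpl31 (chr9:49143081-49143130, plus strand): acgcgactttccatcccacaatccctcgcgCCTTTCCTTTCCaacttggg
Rpl19 (chr10:83519034-83519083, plus strand): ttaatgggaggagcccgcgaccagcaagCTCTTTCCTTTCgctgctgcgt
Rps6 (chr5:106420521-106420570, minus strand): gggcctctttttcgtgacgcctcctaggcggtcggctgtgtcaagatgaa
Rpl3l (chr10:14258416-14258465, plus strand): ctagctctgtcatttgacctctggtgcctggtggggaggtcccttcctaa
Rpl27a, Rpl35, Rps10, Rpl31 and Rpl19 have a run through the annotated start, while Rpl3l has none, and neither does Rps6 at the start that this annotation gives.

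RefSeq start regions of 300 bases were matched for 37 of the 44 genes. A run of at least 5 bases of C and T through the start base was found in 17 of the 37, or 45.9%, against 10.4% of 19005 protein-coding genes. The start base itself was C or T in 21 of 37, or 56.8%, against 35.7% of all. The letters CCGGAAG, a core that ETS-family factors such as Gabpa can bind, were sought on both strands and found in 9 of 37 windows (24.3%), against 11.2% of all. The TATA box letters TATAAA, also sought on both strands, were present in 5 of 37 (13.5%), close to the 13.1% of all. Read on the other strand, CCGGAAG begins with CTTCC and can overlap a run of C and T, and a match describes sequence only.

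The members fell into a bright and a dim class, with no member between a mean intensity of 2781 and 19436. An intensity limit of 10000, chosen after the values were seen, separates them. In the bright class were 52 probe sets for 36 genes, with means over the 8 arrays between 19436 for Rpl14 and 113549 for Rps29 and a median of 64408. The median over all 8740 probe sets was 506.8. Members held 3 of the 10, 31 of the 100 and 42 of the 200 brightest probe sets, and probe sets with several ribosomal protein symbols held another 2, 21 and 36. Because probe sets differ in how well they hybridise, these intensities do not rank the transcripts by abundance.

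The 3 highest means belonged to both probe sets of Rps29 and to Rpl27a. Rps29, a small-subunit protein and a Diamond-Blackfan gene, read 108257 and 114336 in Pax6 homozygous forebrain and 105286 and 126277 in wild-type forebrain. In the hindbrain it read 107394 and 96863 in Pax6 homozygous hindbrain and 133267 and 116710 in wild-type hindbrain. Each array's highest value, between 113555 and 148131, occurred once. This cannot show whether oligonucleotides were saturated, because each value summarises a set of them. Whether high intensities were compressed, here and in the comparisons below, was not tested. The files hold no saturation flags.

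**Figure D1:**
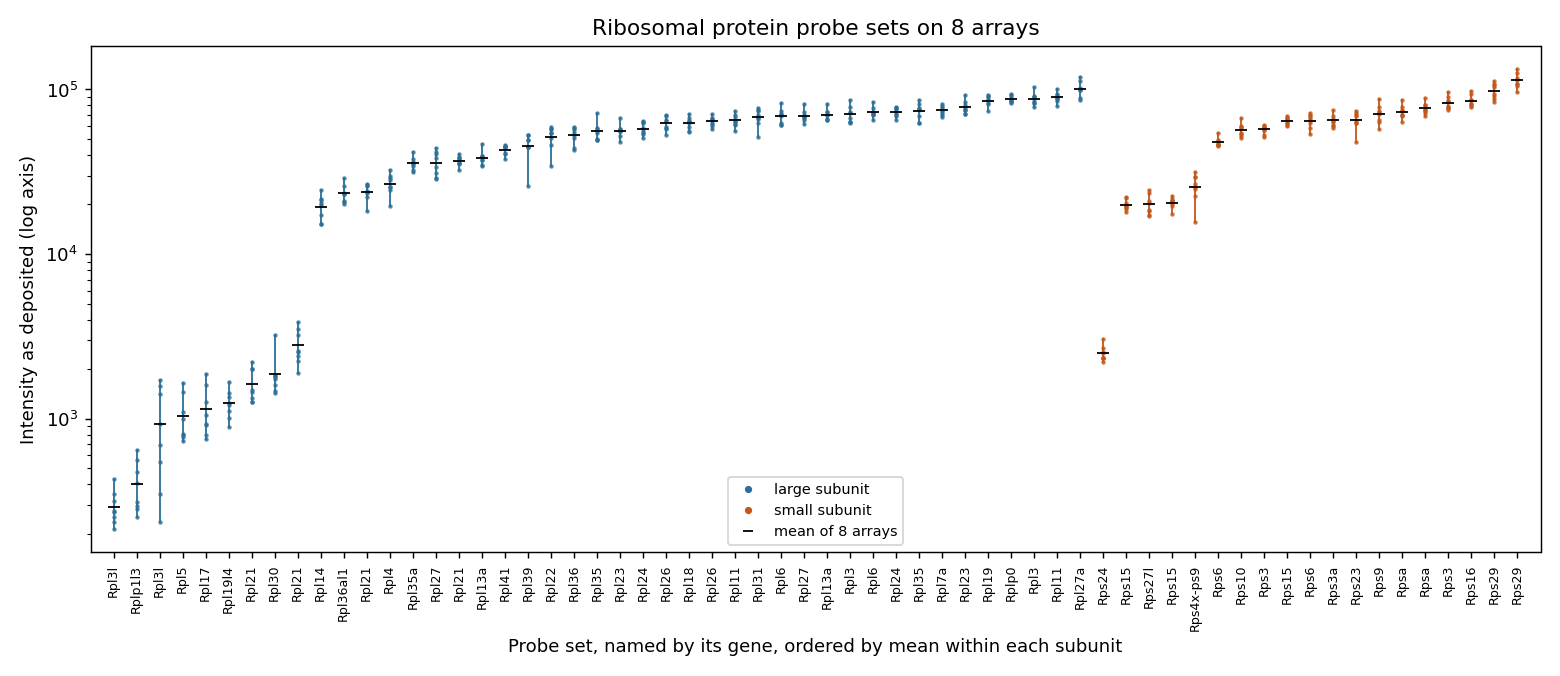
Intensity as deposited (log axis) of the 62 ribosomal protein probe sets that were tested, 1 column each, with large-subunit proteins on the left and small-subunit proteins on the right. Points are the 8 arrays, vertical lines join the lowest and highest array and short bars are means; most columns lie between 19436 and 113549, and the dim class reaches no mean above 2781.

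The dim class held 12 probe sets for 9 genes. Rps2-ps1, a pseudogene, read between -526.7 and 13.4 over its 2 probe sets, above the array's noise level on 0 arrays, and was the only member left out of tests. The noise level is the size of an array's 5th percentile and lay between 243 and 619.8. Rpl3l had means of 930.8 and 292 on its 2 probe sets, above noise on 6 and 3 arrays. The 3 lowest means of all members belonged to both Rps2-ps1 probe sets and to rc_AA891037_g_at of Rpl3l.

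Dim probe sets did not always mean a dim gene. Rpl21, a large-subunit protein, had 4 probe sets, of which M27905_at and X15216cds_s_at averaged 36771 and 23881, while the EST probe sets rc_AA849648_at and rc_AA849648_g_at averaged 2781 and 1623. The ratio of the highest to the lowest of these means was 22.7, for probe sets annotated to the same gene, and its cause was not tested. Rpl5 (1035), Rpl17 (1151), Rpl30 (1864) and Rps24 (2497), genes of ordinary ribosomal proteins, had only a dim probe set. Among 17 genes with several probe sets, 3 had means more than 2-fold apart, namely Rpl21, Rps15 (3.23-fold) and Rpl3l (3.18-fold).

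**Figure D2:**
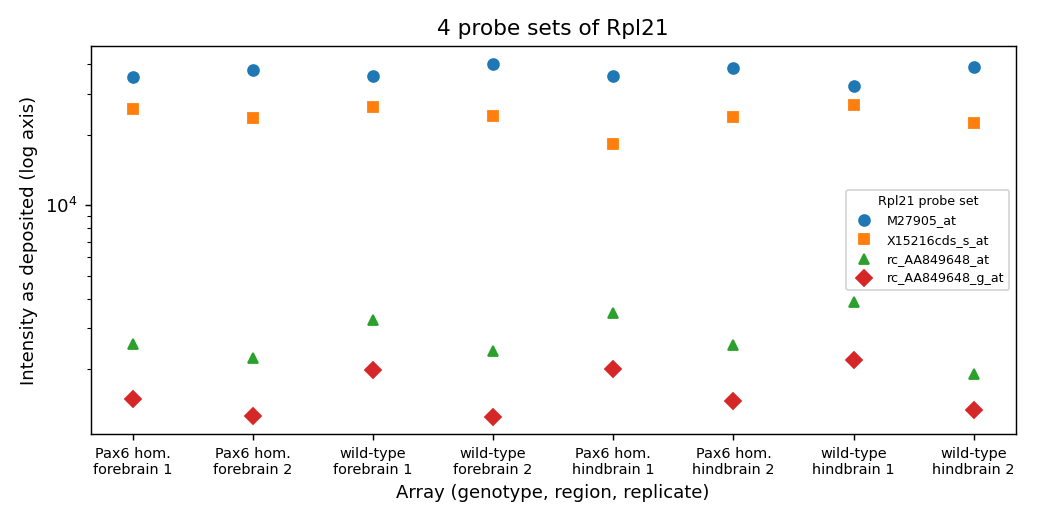
Intensity as deposited (log axis) of the 4 probe sets annotated to Rpl21 on each of the 8 arrays, with Pax6 homozygous left of wild-type in each region. Blue circles and orange squares stay at or above 18210 on every array, and the EST probe sets (triangles and diamonds) stay at or below 3887.

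The bright members were steady across the 8 arrays. Their median ratio of highest to lowest array was 1.33 (range 1.14 to 2.02), against 1.44 for the 690 other probe sets above 10000. These 690 include 38 probe sets with several symbols, a ribosomal protein among them, and were not matched to the members in intensity. The median difference between the 2 arrays of a group was 0.12 on the log2 scale for bright members and 0.18 for the other bright probe sets, and 0.37 for all 5881 probe sets tested. Rplp0, the base of the ribosomal stalk and a common reference gene for PCR, was among the steadiest, as chosen after its values were seen. It read 83347 and 85376 in Pax6 homozygous forebrain and 82919 and 92678 in wild-type forebrain. In the hindbrain it read 89504 and 85697 in Pax6 homozygous hindbrain and 94264 and 86653 in wild-type hindbrain, so the highest array was 1.14 times the lowest. The groups overlapped in both regions. The other stalk-related member was Rplp1l3, a dim probe set named for a P1-like gene.

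Members took 9.67% and 9.68% of the summed intensity of an array in Pax6 homozygous forebrain and 9.61% and 10.5% in wild-type forebrain. The shares were 9.13% and 9.43% in Pax6 homozygous hindbrain and 9.80% and 9.70% in wild-type hindbrain. The hindbrain genotypes did not overlap in this share, and the forebrain genotypes did. As a median over the 52 bright members, an array's deviation from the probe set's own mean was -0.01 and 0.04 in Pax6 homozygous forebrain and -0.01 and 0.18 in wild-type forebrain on the log2 scale. It was -0.13 and -0.06 in Pax6 homozygous hindbrain and 0.06 and -0.01 in wild-type hindbrain. The second wild-type forebrain array stood highest, with 49 of 52 members above their mean, and the first Pax6 homozygous hindbrain array lowest, with 6 of 52. The other bright probe sets moved the same way on these arrays, by 0.12 and -0.07. The second wild-type forebrain array also had the highest ratio of 3′ to 5′ actin signal, 1.69 against 1.23 to 1.44 on the others. Its ratio of 3′ to 5′ GAPDH signal, 1.19, was not the highest, which was 1.27 on the first wild-type hindbrain array. The part of these ratios in the members' values was not tested.

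**Figure D3:**
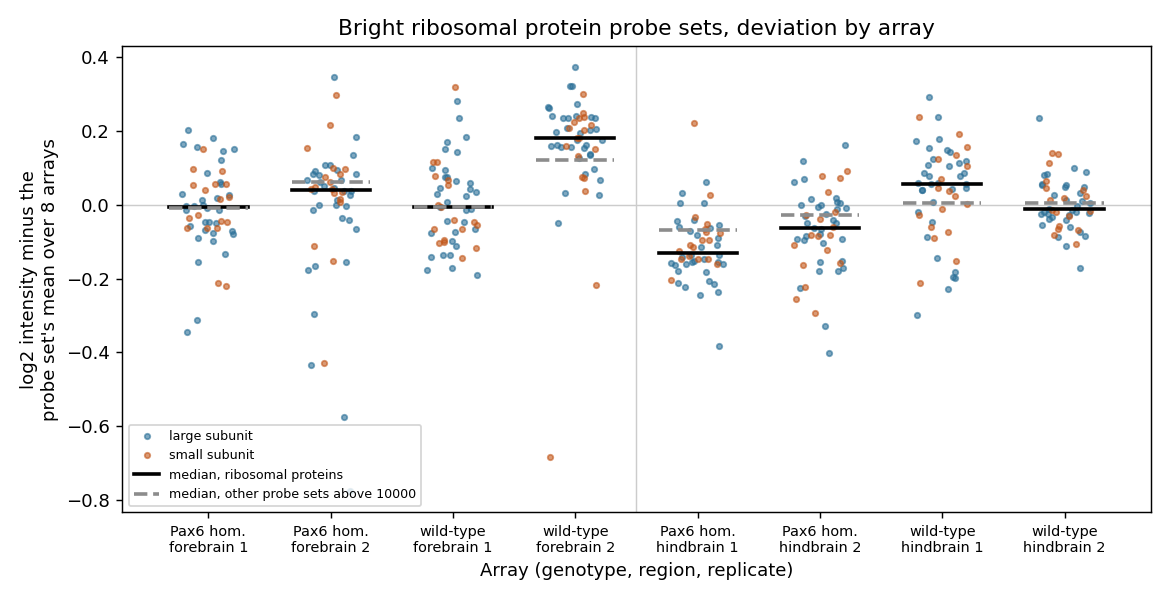
Deviation of each of the 52 bright ribosomal protein probe sets from its own mean over 8 arrays, in log2 units, by array, with Pax6 homozygous left of wild-type in each region. Black bars are medians of the members and dashed grey bars medians of the 690 other probe sets above 10000; the black bars run between -0.13 in the first Pax6 homozygous hindbrain array and 0.18 in the second wild-type forebrain array.

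Markers of region separated the arrays by their labels. Forebrain markers summed to 8977 to 10138 on forebrain arrays and 1951 to 2069 on hindbrain arrays, and Hox and other hindbrain markers to 531 to 1950 on forebrain and 6618 to 8825 on hindbrain arrays. The Pax6 probe set read 1243 and 927 in Pax6 homozygous forebrain and 1197 and 636 in wild-type forebrain, and 1194 and 1111 in Pax6 homozygous hindbrain and 827 and 531 in wild-type hindbrain, and does not check the genotype labels. Erythroid markers, 13 probe sets for 10 genes, summed to 165027 and 165769 in Pax6 homozygous forebrain and 196698 and 209872 in wild-type forebrain, and to 157813 and 158753 in Pax6 homozygous hindbrain and 182069 and 171472 in wild-type hindbrain. The sums did not overlap between genotypes in either region. Over both regions 10 of 12 tested probe sets were below 0, against 45.7% of all, and 0 were called, against 0.034% of all. In forebrain 11 of the 12 were below 0 and in hindbrain 8, against 48.8% and 45.5% of all. Gata1, the defining factor, was above noise on 0 arrays. Neuron markers summed to 75444 and 73685 in Pax6 homozygous forebrain and 77264 and 77720 in wild-type forebrain, and to 121656 and 122328 in Pax6 homozygous hindbrain and 150215 and 160035 in wild-type hindbrain. Progenitor markers summed to 135450 and 114693 in Pax6 homozygous forebrain and 150376 and 157235 in wild-type forebrain, and to 133337 and 138629 in Pax6 homozygous hindbrain and 173608 and 161714 in wild-type hindbrain. The sums of both lists were thus lower on the mutant arrays in each region, without overlap. Probe set counts were mixed for neuron markers in forebrain, with 11 of 19 above 0, 8 below and a median log2 change of 0.13. In hindbrain 4 were above 0 and 15 below, and 0 were called in either region. Of 16 progenitor probe sets, 15 were below 0 in forebrain and 13 in hindbrain, against 48.8% and 45.5% of all. In each region 1 progenitor probe set was called lower in the mutant, against 0.017% of all. The lowest log2 changes were -2.81 in forebrain and -3.72 in hindbrain. Cell cycle genes summed to 358769 and 391306 in Pax6 homozygous forebrain and 364509 and 351503 in wild-type forebrain, which overlap, and to 323392 and 318340 in Pax6 homozygous hindbrain and 350407 and 325764 in wild-type hindbrain, which do not. Lens markers summed to 4696 and 3447 in Pax6 homozygous forebrain and 9842 and 11475 in wild-type forebrain, and to 5628 and 4337 in Pax6 homozygous hindbrain and 4179 and 3210 in wild-type hindbrain. Macrophage markers summed to 3714 and 3592 in Pax6 homozygous forebrain and 4088 and 4375 in wild-type forebrain, and overlapped in hindbrain. Of the 15 macrophage probe sets 7 were above noise on 0 arrays, and of the 17 lens probe sets 8. Only 7 probe sets of each list were tested, so both sums include probe sets at noise. Muscle markers summed to 1356 to 3122 on forebrain and 23334 to 25495 on hindbrain arrays and mesenchyme markers to 91542 to 112429 over all arrays, with the genotypes overlapping in each region. The part of these markers in the members' values was not tested. From sums in bulk samples, a lower cell-type share, less RNA per cell and changes of single listed genes cannot be told apart.

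In the hindbrain, Pax6 homozygous minus wild-type, 0 of 62 members passed the threshold of an adjusted p of 0.05 in limma's fit over all probe sets, against 0.017% of all probe sets tested. Unadjusted p-values under 0.05 were found for 5 members, all lower in Pax6 homozygous, against 4.49% of all. The members nevertheless leaned one way: 48 had a log2 change below 0 and 14 above it, where 45.5% of all probe sets were below 0 and 54.3% above. Their median log2 change was -0.13, against 0.04 for all probe sets and -0.07 for the other bright ones. Of the other bright probe sets 62.9% were below 0. Both Pax6 homozygous arrays were below both wild-type arrays for 28 members, against 14.5% of all probe sets and 206 of the 690 other bright ones. The opposite order was found for 4 members, against 20.1% of all. This lean depends on how the arrays are scaled to each other. Quantile normalization, 1 of 18 alternatives, was the only one that turned its sign, with a members' median of 0.02. Without the first wild-type hindbrain array the median was -0.07.

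Rpl35, which sits by the exit of the tunnel for the nascent peptide and is a Diamond-Blackfan gene, had the smallest p. Its probe set M34331_g_at read 62381 and 62888 in Pax6 homozygous hindbrain and 81885 and 75199 in wild-type hindbrain. The mutant arrays were both below the wild-type arrays, with a log2 change of -0.33 ± 0.11 (SE, limma adjusted p = 0.989), a fold of 0.798. Its second probe set, M34331_at, read 49648 and 56135 in Pax6 homozygous hindbrain and 54714 and 57358 in wild-type hindbrain, which overlap, with a log2 change of -0.09 ± 0.18.

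Rpl27a, a large-subunit protein, read 86543 and 89180 in Pax6 homozygous hindbrain and 118461 and 98936 in wild-type hindbrain, with a log2 change of -0.30 ± 0.12 (SE, limma adjusted p = 0.989). Rps6, the small-subunit protein that S6 kinases phosphorylate when mTOR is active, read 58229 and 53951 in Pax6 homozygous hindbrain and 69236 and 65053 in wild-type hindbrain on M29358_g_at. Its log2 change was -0.26 ± 0.11, and on the other Rps6 probe set -0.05 ± 0.12. On the Rpl27a probe set and on M29358_g_at the mutant arrays lay below the wild-type ones, while on the other Rps6 probe set the genotypes overlapped.

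Rpl31, a protein beside the tunnel exit, read 62281 and 51076 in Pax6 homozygous hindbrain and 74411 and 66347 in wild-type hindbrain, with a log2 change of -0.32 ± 0.14. Rps29 had a log2 change of -0.29 ± 0.13 on X59051cds_s_at, from the values above, and of -0.25 ± 0.13 on its other probe set. Limma's adjusted p was 0.989 for each. In these genes too the mutant arrays were the lower ones.

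The 4 members with the smallest p among those with higher values in Pax6 homozygous hindbrain were Rpl30, Rpl3l, Rpl26 and Rpl36al1. Rpl30, on its dim probe set, read 3217 and 1837 in Pax6 homozygous hindbrain and 1425 and 1604 in wild-type hindbrain, a log2 change of 0.69 ± 0.31 (SE, limma adjusted p = 0.989). Rpl3l read 1585 and 926 in Pax6 homozygous hindbrain and 348 and 542 in wild-type hindbrain, with a log2 change of 1.48 ± 0.84. For Rpl30 the mutant arrays differed from each other by more than the lower of them differed from wild type. The other Rpl3l probe set had a log2 change of 0.05 ± 0.61. Rpl26, which in human cells binds p53 mRNA, had 0.13 ± 0.12 and Rpl36al1 0.18 ± 0.18, with limma adjusted p of 0.991 for both.

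In the forebrain, Pax6 homozygous minus wild-type, limma called 0 of 62 members, against 0.017% of all probe sets, and 0 members had an unadjusted p under 0.05, against 2.92% of all. The log2 change was below 0 for 50 members and above 0 for 12, where 48.8% of all probe sets were below 0 and 51.2% above. The median was -0.07, against 0.01 for all probe sets and -0.03 for the other bright ones. Of the other bright probe sets 56.5% were below 0. Both mutant arrays were below both wild-type arrays for 11 members, against 10.5% of all, and the groups did not overlap in either direction for 13 members, against 23.0% of all. The median changed with single arrays: it was -0.018 without the second wild-type forebrain array and -0.17 without the first. It was -0.035 without the first Pax6 homozygous forebrain array. After quantile normalization it was -0.010.

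Rpl39, Rps23 and Rpl4, the forebrain members with the smallest p, share a pattern in a single array. Rpl39, a small protein of the tunnel wall, read 49401 and 26070 in Pax6 homozygous forebrain and 52543 and 52572 in wild-type forebrain, with a log2 change of -0.55 ± 0.25 (SE, limma adjusted p = 1). Rps23, a protein of the decoding centre, read 69403 and 48230 in Pax6 homozygous forebrain and 70277 and 73623 in wild-type forebrain, with a log2 change of -0.31 ± 0.17. Rpl4, whose loop reaches into the tunnel, read 29732 and 19642 in Pax6 homozygous forebrain and 32265 and 28992 in wild-type forebrain, with -0.34 ± 0.19. In all of them the second Pax6 homozygous forebrain array was low and the first lay near wild type. Without that array the log2 changes were -0.09 for Rpl39, -0.05 for Rps23 and -0.04 for Rpl4. Without the first Pax6 homozygous forebrain array, which leaves only the low one, Rpl39 stood at -1.01. Rpl3, next by p, read 89513 and 78709 in Pax6 homozygous forebrain and 90413 and 103184 in wild-type forebrain on rc_AA892367_i_at. Its log2 change was -0.20 ± 0.12, with the second wild-type forebrain array the highest of all 8.

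The second Pax6 homozygous forebrain array was the lowest of all 8 by more than 0.2 on the log2 scale for 4 bright members, Rpl39, Rpl22, Rps23 and Rpl4. Rpl22, a large-subunit protein, read 58886 and 34327 in Pax6 homozygous forebrain and 54609 and 57695 in wild-type forebrain. Rack1, a scaffold protein bound to the small subunit and no member by the rule, read 54706 and 36402 in Pax6 homozygous forebrain and 56120 and 58705 in wild-type forebrain. A gap of that size on 1 array was found for 10 of 52 bright members in all. On the same array 36 of the 52 bright members were above their own mean.

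Of the members with higher values in Pax6 homozygous forebrain, Rpl19 was the one bright gene with non-overlapping arrays. Rpl19, a large-subunit protein near the tunnel exit that also forms a bridge to the small subunit, read 90563 and 90996 in Pax6 homozygous forebrain and 81456 and 82370 in wild-type forebrain, with a log2 change of 0.15 ± 0.11 (SE, limma adjusted p = 1). Rpl19l4 read 1346 and 1658 in Pax6 homozygous forebrain and 884 and 1210 in wild-type forebrain, with 0.53 ± 0.33. Rps4x-ps9 read 25511 and 29216 in Pax6 homozygous forebrain and 31379 and 15663 in wild-type forebrain, with 0.30 ± 0.28; the groups overlap, and without the second wild-type forebrain array the sign turned to -0.20. Rpl3l had 0.64 ± 0.84, and -0.79 without that array.

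Over both regions together, Pax6 homozygous minus wild-type, limma called 0 of 62 members, against 0.034% of all probe sets. An unadjusted p under 0.05 was found for 3 members, against 5.02% of all, all of them lower. On the log2 scale Rpl35 stood at -0.25 ± 0.08 on M34331_g_at, Rps6 at -0.19 ± 0.08 on M29358_g_at and Rpl27a at -0.20 ± 0.08 (limma adjusted p = 0.928 for each). The other probe set had -0.11 ± 0.13 for Rpl35 and -0.06 ± 0.09 for Rps6. Rps9, a small-subunit protein, was next by p with -0.21 ± 0.10. The log2 change was below 0 for 51 members and above 0 for 11, where 45.7% of all probe sets were below 0 and 54.3% above, and the median was -0.10, against 0.03 for all probe sets. Of the 690 other bright probe sets 62.2% were below 0, with a median of -0.05. All 4 mutant arrays were below all 4 wild-type arrays for 0 members, against 1.19% of all probe sets, and above them for 0, against 2.38%. The median was 0.0027 after quantile normalization and -0.04 without the second wild-type forebrain array. The higher members with the smallest p, Rpl3l (1.06 ± 0.59), Rps4x-ps9 (0.27 ± 0.19), Rpl30 (0.27 ± 0.22) and Rpl19l4 (0.28 ± 0.23), had limma adjusted p of 0.928 as well.

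**Figure D4:**
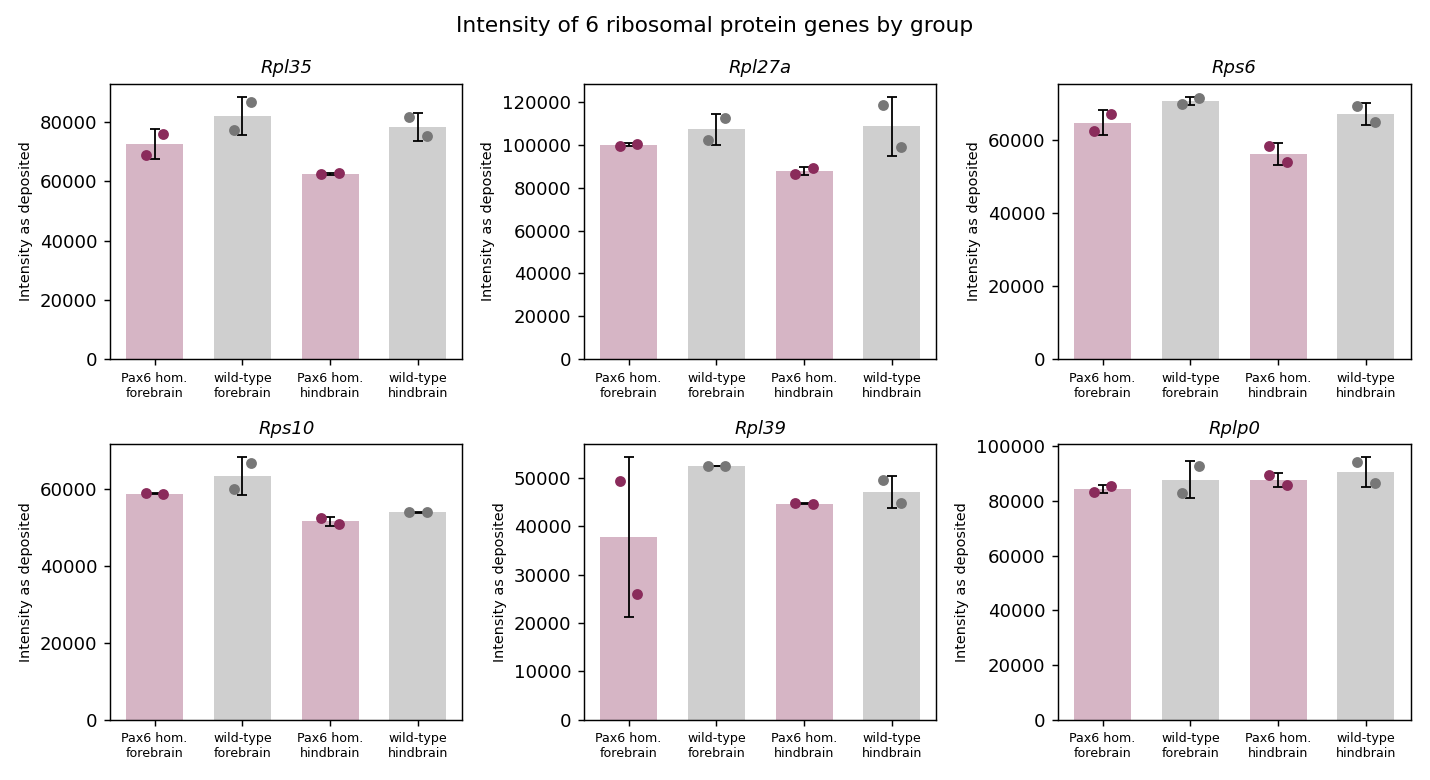
Intensity as deposited of Rpl35 (M34331_g_at), Rpl27a, Rps6 (M29358_g_at), Rps10, Rpl39 and Rplp0 in the 4 groups, with Pax6 homozygous left of wild-type in each region. Bars are means, error bars SDs and points the 2 arrays of a group. Rpl39 shows the low second Pax6 homozygous forebrain array (26070). The hindbrain genotypes do not overlap for any of these genes but Rplp0, with only a small gap for Rps10 and Rpl39.

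The sizes that these data still allow can be read from the confidence intervals. In the hindbrain the 95% interval of the log2 genotype change lay within 1 unit of 0, a 2-fold change, for 52 of 52 bright members, and within 0.5 for 32. In the forebrain these counts were 51 and 40; the lowest bound there was a fold of 0.462. Intervals of each probe set are not adjusted for their number, and their width reflects both the 2 arrays of a group and the spread between arrays.

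The genotype change did not pass the test of a difference between regions for any member: limma called 0 of 62 in the interaction, against 0% of all probe sets, and 0 members had an unadjusted p under 0.05, against 1.9% of all. The interaction is the change in forebrain minus that in hindbrain. Its median was 0.01 over the members, with 32 above 0 and 30 below, where 48.0% of all probe sets were above 0 and 52.0% below. The smallest p in each direction belonged to Rpl19 (0.32 ± 0.16) and Rpl30 (-0.83 ± 0.44), with a limma adjusted p of 0.9995 for both.

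In forebrain minus hindbrain, averaged over genotypes, limma called 0 of 62 members, against 1.51% of all probe sets, and 1 member had an unadjusted p under 0.05, against 8.09% of all. The log2 change was above 0 for 49 members and below 0 for 13, where 46.8% of all probe sets were above 0 and 53.2% below, with a median of 0.08 against -0.02 for all and 0.06 for the other bright ones. Of the other bright probe sets 68.0% were above 0. All 4 forebrain arrays were above all 4 hindbrain arrays for 3 members, against 2.28% of all probe sets, and the reverse held for 0, against 4.37%. The median was 0.0065 after quantile normalization. It was 0.03 without the second wild-type forebrain array, 0.12 without the first, and 0.048 without the first Pax6 homozygous hindbrain array.

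Rps10, a protein of the head of the small subunit and a Diamond-Blackfan gene, had the smallest p between regions. It read 58838 and 58607 in Pax6 homozygous forebrain and 59888 and 66725 in wild-type forebrain, against 52376 and 50785 in Pax6 homozygous hindbrain and 53875 and 54055 in wild-type hindbrain. Every forebrain array was above every hindbrain array, with a log2 change of 0.21 ± 0.08 (SE, limma adjusted p = 0.430), a fold of 1.15. Rpl26 had 0.15 ± 0.07 and 0.17 ± 0.08 on its 2 probe sets and Rpl31 0.20 ± 0.10, with limma adjusted p of 0.661 to 0.669. Lower in forebrain by the smallest p were Rpl17 (-0.34 ± 0.33), the EST probe set rc_AA849648_g_at of Rpl21 (-0.21 ± 0.25), Rpl30 (-0.17 ± 0.22) and rc_AA892895_i_at of Rps15 (-0.07 ± 0.10), of which the first 3 belong to the dim class.

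**Figure D5:**
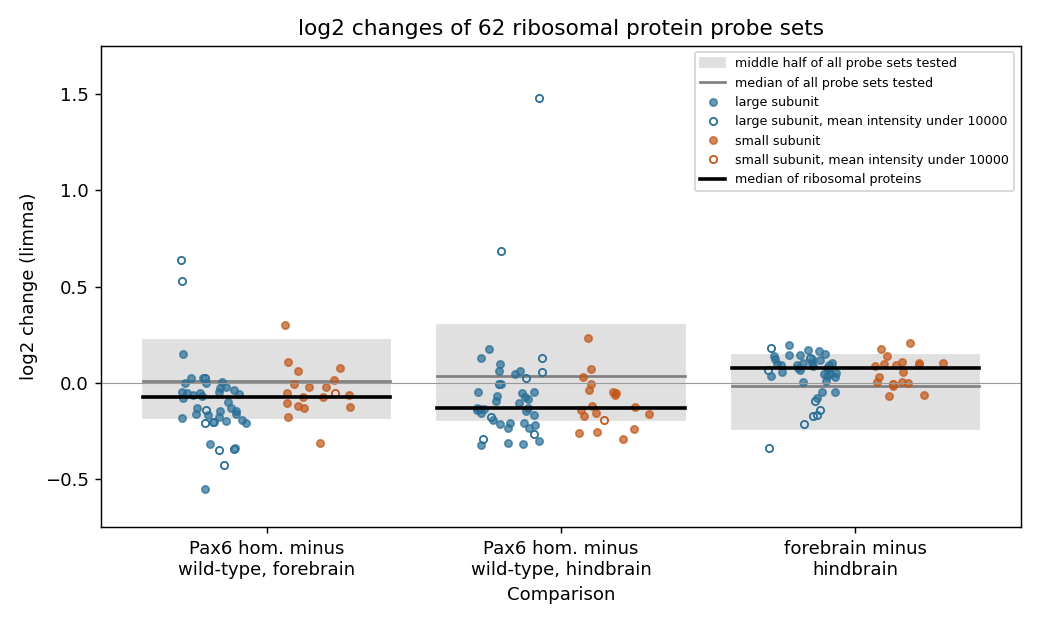
The log2 changes of the 62 ribosomal protein probe sets in limma's fit, for Pax6 homozygous minus wild-type in forebrain, the same in hindbrain, and forebrain minus hindbrain; filled points are bright and open points dim members, coloured by subunit. Black lines are the members' medians (-0.07, -0.13 and 0.08), the grey band holds the middle part of all probe sets tested between the quartiles and its line their median; nearly all filled points lie inside or near the band.

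By subunit, the median log2 genotype change was -0.13 for large-subunit and -0.05 for small-subunit members in forebrain, and -0.13 for each in hindbrain. Members whose loss is linked to Diamond-Blackfan anaemia numbered 16 probe sets for 11 genes, with a change below 0 in 15 in forebrain, 13 in hindbrain and 16 in both regions together, and 0 called. Over all 62 members 50, 48 and 51 were below 0, and over all probe sets 48.8%, 45.5% and 45.7%, so nothing particular to this list is read from its counts. Those by the peptide exit numbered 9 probe sets for 7 genes, with 8 below 0 in forebrain and 7 in hindbrain, 0 called, and a median of -0.18 over both regions, against -0.10 for all members. Below 0 were thus 88.9% in forebrain and 77.8% in hindbrain, against 80.6% and 77.4% of all members. The list holds Rpl39 and Rpl22, each with the single low forebrain array. Rpl5 and Rpl11, which carry the smallest ribosomal RNA into the large subunit and bind Mdm2 when ribosome assembly fails, had 3 probe sets and 0 calls, with log2 changes between -0.31 and -0.01 over both regions. Rpl11 itself stood at -0.01 ± 0.09 and -0.11 ± 0.09.

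Where a gene had several probe sets, they did not always move alike. The largest ranges of a log2 change within a gene were 1.42 for Rpl3l in hindbrain, 0.54 for Rpl21 in the interaction and 0.51 for Rpl3 in the interaction. Rpl3, which lies near the catalytic centre, read 85165 and 91533 in Pax6 homozygous hindbrain and 82620 and 82526 in wild-type hindbrain on rc_AA892367_i_at. On X62166cds_s_at it read 63086 and 63060 in Pax6 homozygous hindbrain and 85844 and 62321 in wild-type hindbrain. The first set had the mutant above and the second overlapped, with log2 changes of 0.10 ± 0.12 and -0.21 ± 0.16. Ribosomal protein genes have many processed pseudogenes in mammalian genomes, and transcripts of near-identical copies cannot be told apart by such probes.

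Some dim members were highest on the arrays with the most noise. Rpl5, Rpl17 and Rplp1l3 had their 2 highest values on the first wild-type forebrain and the first wild-type hindbrain array. Rpl5 read 988 and 729 in Pax6 homozygous forebrain and 1455 and 806 in wild-type forebrain, and 1091 and 800 in Pax6 homozygous hindbrain and 1643 and 768 in wild-type hindbrain. Those arrays also had the highest noise levels, 551 and 620, against 243 to 524 on the others. In every group the first array was the noisier, at 389 to 620 against 243 to 352 on the second arrays. The part of noise in these values was not tested.

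The other genes of translation gave no call. Over both regions 0.034% of all probe sets were called for genotype and 54.3% were above 0, with a median of 0.03. Of the proteins bound to the ribosome that the rule leaves out, Rack1 was on the array, at -0.31 ± 0.12 over both regions (limma adjusted p = 0.928), with the low array described above. Elongation factors had 7 probe sets for 3 genes, with 0 called and a median genotype change of -0.10; Eef1g had -0.19 ± 0.10 and rc_AI178750_at of Eef2 -0.16 ± 0.11 by the smallest p, and the other 3 Eef2 probe sets had 0.16, 0.10 and 0.18. Initiation factors had 26 probe sets for 16 genes, with 0 called, 17 above 0 and 9 below and a median of 0.08. Eif4a2, an RNA helicase of cap-dependent initiation, read 16567 and 13389 in Pax6 homozygous forebrain and 10985 and 12400 in wild-type forebrain on U64705cds_i_at, and 16211 and 16988 in Pax6 homozygous hindbrain and 9757 and 11903 in wild-type hindbrain. All 4 mutant arrays were above all 4 wild-type ones, with a log2 change of 0.49 ± 0.12 (SE, limma adjusted p = 0.801), and 0.36 ± 0.13 on U64705cds_f_at.

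Genes of ribosome assembly had 17 probe sets for 10 genes, with 0 called and a median of 0.22 over both regions. Of these 11 were above 0 and 6 below, where 54.3% of all probe sets were above 0. Gnl3, the nucleolar protein nucleostemin, had 1.08 ± 0.37 on the dim probe set rc_AA800679_at, and Dkc1, the pseudouridine synthase of small nucleolar particles, had -0.44 ± 0.16 on rc_AA892562_g_at (limma adjusted p = 0.928 for both). The other probe sets of these genes were nearer 0, with 0.36 ± 0.15 and 0.25 ± 0.17 for Gnl3 and -0.07 ± 0.14 for Dkc1. Mitochondrial ribosomal proteins, which belong to a separate ribosome, had 17 probe sets for 14 genes, with 0 called and a median genotype change of 0.02; Mrpl52 had -0.79 ± 0.28 and Mrpl3 0.40 ± 0.14. In forebrain minus hindbrain 15 of these 17 were above 0, with a median of 0.17 and 0 called. Of all probe sets 46.8% were above 0, with a median of -0.02, and 1.51% were called. The S6 kinase gene Rps6kb1 had 0.25 ± 0.18 and 0.11 ± 0.16 on its 2 probe sets. Growth control genes had 13 probe sets for 8 genes and 0 calls; Mdm2, the ligase that degrades p53, had 1.17 ± 0.38 on the dim probe set AA875509_at and 0.39 ± 0.27 and 0.18 ± 0.15 on its others, and Mycn had 0.36 ± 0.24.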

How the data were processed

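For every array the authors deposited a linear intensity of each probe set, with 18.3% to 22.3% of an array's values negative. Its software, algorithm and scaling were not given in the sources used here. Each array's mean without its lowest and highest 2% of values was 2504 to 2505, so this scaling was kept. For depth, the number of arrays limits the precision.

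The deposited intensities were floored at the pooled 25th percentile (45.9) and put on a log2 scale. Probe sets were tested if 2 or more arrays exceeded the pooled 40th percentile (255): 5881, with 62 members (43 genes). All 8 arrays entered 1 model of 4 group means in limma 3.58.1 (R 4.3.3; lmFit, eBayes with trend). P-values were adjusted by Benjamini-Hochberg over all probe sets tested, two-sided. The fit was tested on simulated data. Gene symbols came from the platform annotation, and 43 of the 44 genes matched a RefSeq table of GRCr8. Genotype changes are Pax6 homozygous minus wild-type; ± beside a log2 change is the standard error.

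Members and gene lists were chosen with earlier results of these data known. Genes were named by rule: in each comparison the 4 members of smallest p in each direction, the 3 highest and 3 lowest means, the 3 genes whose probe sets disagreed most, and the 2 smallest p of each list of other translation genes. Comparisons of genotype within forebrain and hindbrain enter the average over both, so they share arrays. Alternatives were other floors, filters and scalings, a replicate block, 1 probe set per gene, leaving out each array and fitting a region alone.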

Additional observations from a re-analysis of the deposited data

Results flagged for a closer look

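In 2 members both mutant arrays were on one side of both wild-type arrays in forebrain and on the other side in hindbrain. That is 3.23% of the 62 members tested, against 2.45% of all 5881 probe sets (144), a share near the background. Rpl19 was higher in Pax6 homozygous forebrain (90563 and 90996) than in wild-type forebrain (81456 and 82370), and lower in Pax6 homozygous hindbrain (73640 and 85752) than in wild-type hindbrain (92970 and 85883), a difference between the log2 changes of 0.32. The hindbrain gap between the nearest arrays was small. Rpl3, on rc_AA892367_i_at, was lower in Pax6 homozygous forebrain (89513 and 78709) than in wild-type forebrain (90413 and 103184) and higher in Pax6 homozygous hindbrain (85165 and 91533) than in wild-type hindbrain (82620 and 82526), a difference of -0.30. The other Rpl3 probe set did not repeat this. The difference was tested as limma's interaction, which passed for neither (adjusted p of 0.9995 for each).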

How the results depend on the processing

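No member passed the threshold under the 18 alternatives run for the forebrain and for the hindbrain change, or under the 17 run for each of the other 3 comparisons. Alternatives that left out an array left 1 array in that group, which is then assumed to vary like the other groups. The smallest limma adjusted p was 0.121 in forebrain, 0.422 in hindbrain, 0.221 over both, 0.785 in the interaction and 0.204 between regions. The medians did move. After quantile normalization they were 0.0247 in hindbrain, 0.00273 over both regions and 0.00648 between regions, so the lean of the members depends on the scaling used. The sign of the median turned under 1 alternative in hindbrain and 1 over both regions, in each case quantile normalization. It turned under 0 alternatives in forebrain and 0 between regions. Leaving out 1 array gave medians of -0.17 to -0.018 in forebrain, -0.17 to -0.07 in hindbrain, -0.14 to -0.04 over both, -0.051 to 0.12 in the interaction and 0.03 to 0.12 between regions. Signs turned for Rps4x-ps9 (-0.20; 0.80) and Rpl3l (-0.79; 2.06) in forebrain and for rc_AA892895_i_at of Rps15 between regions (0.00118; -0.14), each without the second wild-type forebrain array, and for Rpl30 between regions (0.0289; -0.38) without the first Pax6 homozygous hindbrain array; the other number is the opposite end of the range over left-out arrays, and the cause was not tested. Arrays of the same number are not stated to be paired, but their deviations correlated (r of 0.275 to 0.465 over probe sets). With the replicate block 0 members were called, with a smallest adjusted p of 0.513 in hindbrain, 0.857 in forebrain, 0.440 over both, 0.948 in the interaction and 0.285 between regions; over all probe sets the region calls were 139 against 89. Including probe sets of several ribosomal protein symbols, and keeping only members above 10000, were chosen after seeing the data and called 0 members.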
